A study of Mus musculus with 20 samples.

Results

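The Ifi200 family is a group of interferon-inducible proteins that bind DNA, and its expression was compared in the livers of 4 inbred mouse strains. The family was taken as 7 gene names, Aim2, Ifi202b, Ifi203, Ifi204, Ifi205, Mnda and Pyhin1, and a gene was included where the annotation of the array gave a probe set exactly that name alone. This matched 4 of the 7 names, Aim2, Ifi202b, Ifi203 and Ifi205, each with 1 probe set, out of 19938 genes measured. Ifi204 was found only on a probe set that also lists Ifi211, and in the gene table used here Mnda is a synonym of Ifi211 and Pyhin1 a synonym of Ifi209. These and the other measured genes of the same cluster are described beside the 4 matched genes, as neighbours and not as members.

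Total RNA from liver was hybridised to Affymetrix arrays, 1 array per animal. The strains were NZO/Hl (NZO), a model of obesity and type 2 diabetes, C57/Bl6 (B6), C3H, and 129P2/OlaHsd (129P2), with 5 male mice of each at 6 weeks of age. Mice of all 4 strains had eaten a high-fat diet, with 45 kcal% fat, since weaning at 21 days, so no group shows a strain on another diet. The animals of a strain are numbered 1 to 5 in the order of their records, and the number ties no animal to one of another strain. Values are log2 expression levels. The level of one gene cannot be set against that of another, because each probe set binds with its own strength. Whether a probe set binds the transcripts of all 4 strains equally well was not tested.

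Proteins of this family carry 1 or more HIN domains, which hold double-stranded DNA, and most also carry a pyrin domain, through which they bind partner proteins. AIM2 that has bound DNA in the cytosol recruits the adaptor ASC, encoded by Pycard, and caspase-1, and this inflammasome matures IL-1β and IL-18 and opens gasdermin D pores. The product of Ifi202b has HIN domains and no pyrin domain and inhibits AIM2, while that of Ifi204 is related to human IFI16 and acts with STING. In mice the genes form a cluster on chromosome 1, many are induced by interferon, and they are best known from macrophages and other leukocytes. In published work a deletion at Ifi202b in a C57BL/6 substrain has been linked to loss of its transcript, and whether the B6 animals measured here carry it was not tested.

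The stretches below, from the promoters of the cluster, are shown because they hold or lack the core of the interferon-stimulated response element (ISRE), the site through which type I interferon acts. They come from RefSeq promoter windows of the GRCm38.p6 assembly, a C57BL/6J genome, and so are not the sequences of the other strains. Each window runs from 250 bases before to 50 bases after an annotated start. Capitals mark the ISRE core, searched on both strands as GAAA, any 2 bases and GAAA again.
Ifi203, chr1:173942503-173942542, minus strand: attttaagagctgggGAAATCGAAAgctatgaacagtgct
Ifi205, chr1:174031865-174031904, minus strand: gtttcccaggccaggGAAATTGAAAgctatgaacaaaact
Ifi211, chr1:173913059-173913098, minus strand: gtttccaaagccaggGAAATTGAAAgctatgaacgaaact
Ifi207, chr1:173741826-173741865, minus strand: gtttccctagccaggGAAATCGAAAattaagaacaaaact
Ifi213, chr1:173599321-173599360, minus strand: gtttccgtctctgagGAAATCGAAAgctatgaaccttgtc
Ifi214, chr1:173536012-173536051, minus strand: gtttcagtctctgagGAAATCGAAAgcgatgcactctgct
Ifi209, chr1:173630765-173630804, plus strand: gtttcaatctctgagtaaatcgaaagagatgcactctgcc
The Ifi209 stretch was placed by a run it shares with the end of the Ifi213 core, and it holds no full core. The 40 bases of Ifi213 were the same as those of Ifi208, and the 40 bases of Ifi203 the same as those of Mndal, a cluster gene with no probe set of its own here.

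Of 13 cluster genes looked up, 12 had a promoter window, and Ifi204 was not among them. In the assembly used, an ISRE core was present in windows of 9 of these genes and absent from those of Aim2, Ifi209 and Ifi202b. Among all 32851 windows, 3.44% held it. In Ifi203 the match began 35 bases before one annotated start and was not in the window of the other start, and in Ifi205 it began 134 bases before the start. The core of the interferon-gamma activated site (GAS), TTCNNNGAA on either strand, was in 8.3% of all windows and in 1 gene of the cluster, Ifi202b, beginning 148 bases before its start. The 250 bases before the starts of Ifi202b and Aim2 are shown as the members without an ISRE core in this assembly. The GAS core of Ifi202b is in capitals.
Ifi202b, chr1:173982845-173983094, minus strand: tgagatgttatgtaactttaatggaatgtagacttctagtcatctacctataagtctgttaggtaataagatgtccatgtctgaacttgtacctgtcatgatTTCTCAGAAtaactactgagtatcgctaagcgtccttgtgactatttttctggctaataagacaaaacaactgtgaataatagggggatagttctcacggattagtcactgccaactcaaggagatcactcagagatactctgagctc
Aim2, chr1:173420354-173420603, plus strand: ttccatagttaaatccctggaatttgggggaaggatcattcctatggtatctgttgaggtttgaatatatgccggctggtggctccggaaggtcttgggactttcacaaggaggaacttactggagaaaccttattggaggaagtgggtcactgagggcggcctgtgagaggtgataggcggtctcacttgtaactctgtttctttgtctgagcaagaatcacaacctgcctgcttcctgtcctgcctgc
A match describes these letters only, and binding was not measured. Whether the published deletion at Ifi202b described above alters the Ifi202b window of this assembly was not tested. The missing ISRE core and the GAS core of that window are therefore not read as features of the gene in other strains.

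**Figure D1:**
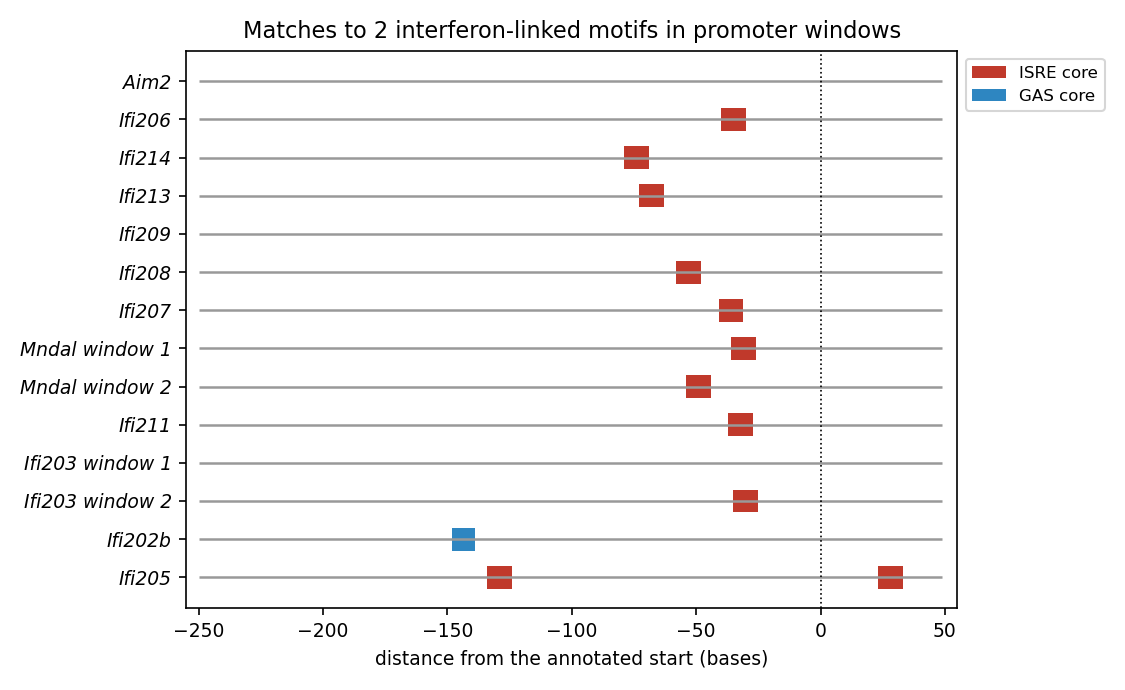
Position of each match to the ISRE core (red) and the GAS core (blue) in the promoter windows of the cluster, with the distance from the annotated start in bases on the x axis and 1 line per window. The ISRE core of Ifi203 lies 35 bases before the start in 1 of its windows, and Aim2 and Ifi209 have no match to either motif.

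Ifi203 was the one member whose liver level differed between strains in the main test, and it was low in NZO. Ifi202b showed the opposite pattern in values that were mostly near background, with NZO above all 15 other animals and B6 below them all. Ifi205 was dim as well, with B6 above NZO and C3H. Aim2 stood at the edge of detection in every strain and passed no test. A value is called dim here when it lies under the 40th percentile of all 35556 probe sets on its own array, a floor that ran from 6.53 to 6.72 over the 20 arrays. A gene was tested when at least 5 arrays were above their floor, which 14190 of 19938 genes and 2 of the 4 members, Aim2 and Ifi203, were. Ifi202b and Ifi205 were above it on 1 array each. Past the F-test over the 4 strains (limma, Benjamini-Hochberg adjusted p under 0.05) was 1 member, Ifi203, where 17% of all tested genes were past it.

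**Figure D2:**
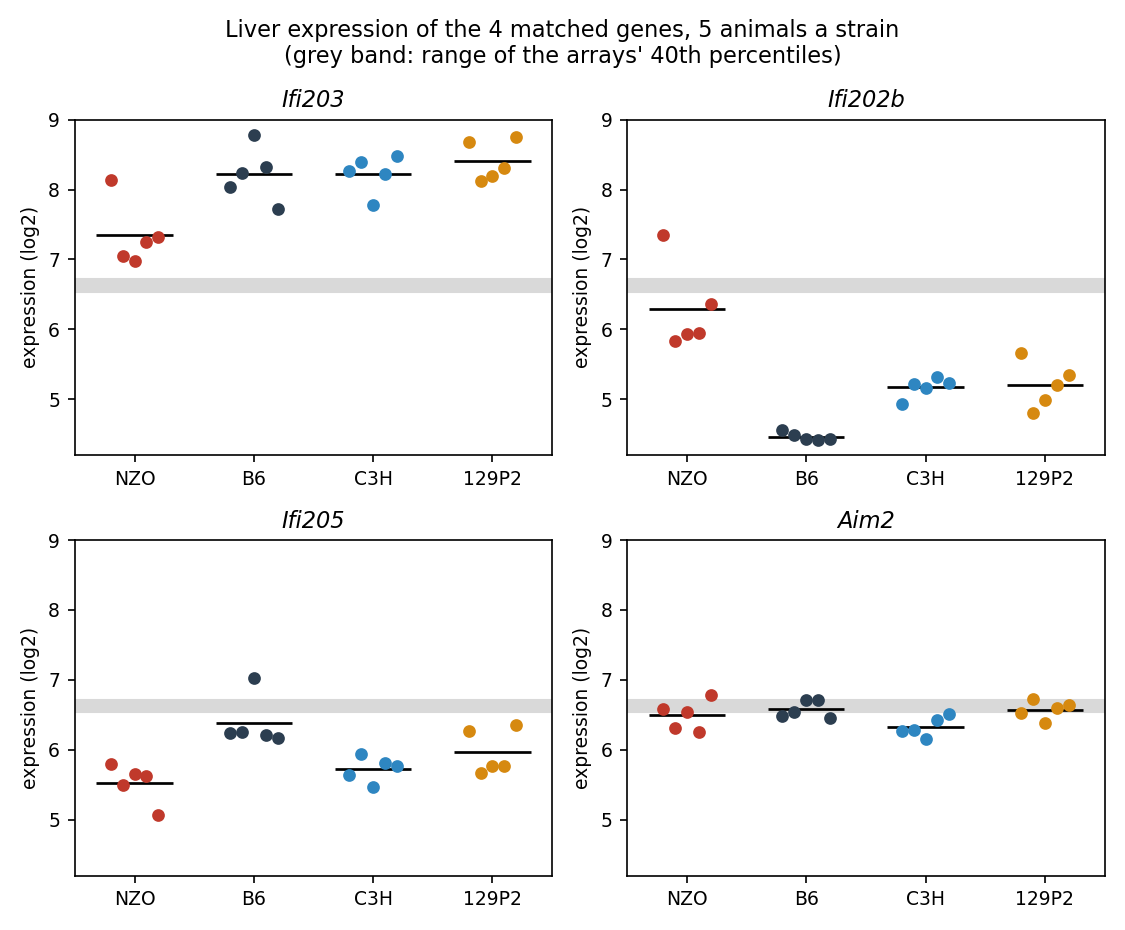
Log2 expression of Ifi203, Ifi202b, Ifi205 and Aim2 in each of the 5 animals of each strain (points), with the strain mean (black line), and the range of the arrays' floors from 6.53 to 6.72 (grey band). Ifi203 lies above the band in all 20 animals, and Ifi202b crosses it in NZO replicate 1 alone.

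Ifi203 encodes an interferon-inducible nuclear protein of the family and was the only member above the floor on all 20 arrays. In NZO its values were 8.14, 7.05, 6.98, 7.24 and 7.33. In B6 they were 8.04, 8.24, 8.78, 8.33 and 7.71. In C3H they were 8.26, 8.39, 7.77, 8.23 and 8.48, and in 129P2 8.68, 8.12, 8.20, 8.31 and 8.76. NZO replicates 2 to 5 lay below all 15 animals of the other strains, and NZO replicate 1 lay within the range of each of them, so that NZO overlapped each strain through this 1 animal. The other 3 strains overlapped each other throughout.

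Ifi203 averaged 7.35 ± 0.46 in NZO (SD, n = 5). The other strains averaged 8.22 ± 0.39 (B6), 8.23 ± 0.27 (C3H) and 8.41 ± 0.29 (129P2) (SD, n = 5 each). NZO minus B6 was -0.87 on the log2 scale (SE 0.20, limma, adjusted p = 0.00542), which put the NZO level at 54.6% of that in B6. This call belongs to the 6.64% of tested genes that were called lower in that comparison. NZO minus C3H was -0.88 (SE 0.20, adjusted p = 0.00616), among 3.09% of genes called lower. NZO minus 129P2 was -1.07 (SE 0.20, adjusted p = 0.000916), among 4.61% of genes called lower, and put NZO at 47.7% of the 129P2 level. All 3 comparisons use the same 5 NZO animals and are not independent of each other, and 1.22% of tested genes were called lower in NZO in all of them. In whole liver, fewer cells of a kind and less RNA per cell cannot be told apart.

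Between B6, C3H and 129P2 no difference of Ifi203 was called, where 8.05% (C3H minus B6), 6.19% (129P2 minus B6) and 5.03% (C3H minus 129P2) of tested genes were. C3H minus B6 was 0.00 (95% interval -0.41 to 0.42, adjusted p = 0.990). For 129P2 minus B6 it was 0.19 (95% interval -0.22 to 0.61, adjusted p = 0.653), and for C3H minus 129P2 it was -0.19 (95% interval -0.60 to 0.23, adjusted p = 0.717). These intervals leave room for differences up to 0.61, so the order of these 3 strains is not settled. None of the 3 intervals reaches the size of the NZO minus B6 difference.

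**Figure D3:**
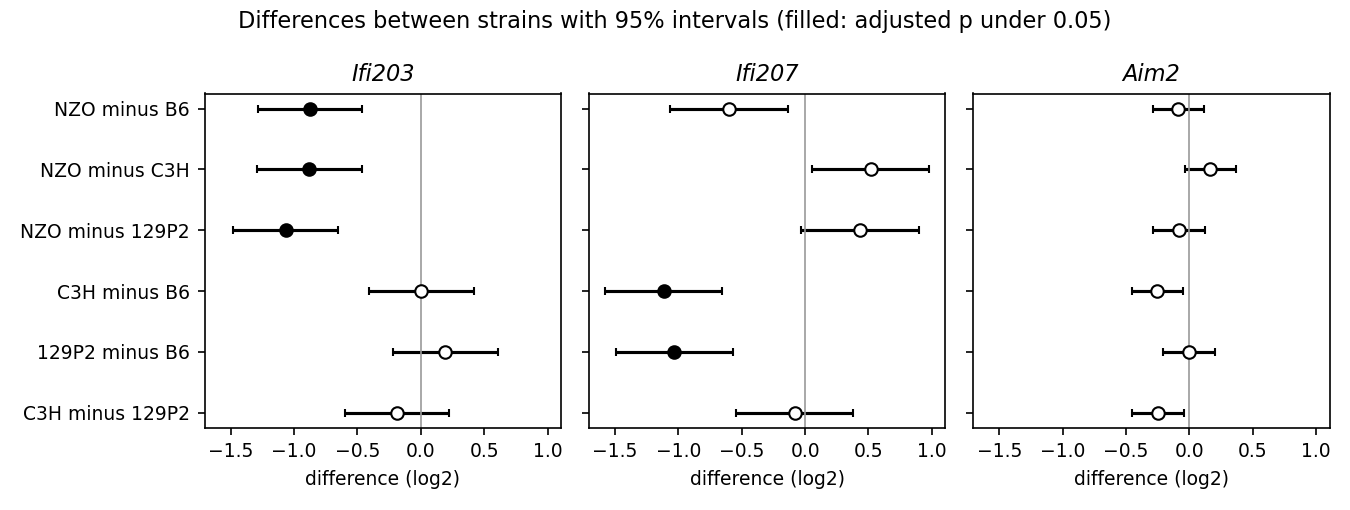
Differences between strain means with their 95% intervals on the log2 scale for Ifi203, Ifi207 and Aim2, 1 row per pair of strains, filled where the adjusted p was under 0.05. The 3 filled points of Ifi203 are those of NZO (-0.87, -0.88 and -1.07), and the 2 filled points of Ifi207 are C3H and 129P2 against B6 (-1.12 and -1.03).

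Aim2, the sensor that starts the inflammasome, was near the floor everywhere. Its values were 6.58, 6.31, 6.54, 6.25 and 6.79 in NZO and 6.48, 6.53, 6.72, 6.71 and 6.46 in B6. In C3H they were 6.27, 6.29, 6.15, 6.42 and 6.51, and in 129P2 6.53, 6.72, 6.38, 6.60 and 6.64. The strains overlapped, and 6 of 20 arrays were above their floor, none of them from C3H. The F-test gave an adjusted p of 0.178. The differences ran from -0.25 (C3H minus B6, 95% interval -0.46 to -0.05, adjusted p = 0.116) to 0.17 (NZO minus C3H, 95% interval -0.04 to 0.37, adjusted p = 0.467), and none was called. The intervals of C3H minus B6 and of C3H minus 129P2 (-0.45 to -0.05) are not adjusted for the number of genes and held only negative values. Whether Aim2 differs between strains is therefore not settled by these arrays.

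Ifi202b, whose product inhibits AIM2, had its lowest values in B6 and its highest in NZO. In NZO the values were 7.34, 5.83, 5.94, 5.95 and 6.36. In B6 they were 4.57, 4.48, 4.43, 4.42 and 4.43. In C3H they were 4.94, 5.23, 5.16, 5.32 and 5.23, and in 129P2 5.66, 4.81, 4.99, 5.21 and 5.35. Every NZO animal was above the highest animal of each other strain, and every B6 animal was below the lowest, while C3H and 129P2 overlapped. Among all 19938 genes, 0.602% had NZO above the other strains without overlap and 0.281% had B6 below them. Mean levels were 4.47 ± 0.061 in B6, 5.17 ± 0.14 in C3H, 5.20 ± 0.33 in 129P2 and 6.28 ± 0.63 in NZO (SD, n = 5 each). NZO replicate 1 alone was above the floor of its array, so no fold is given for this gene.

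Ifi202b took no part in the main test, and a fit of all 19938 genes without the filter gave it values. NZO was then higher than B6 (adjusted p = 9.65e-07), C3H (adjusted p = 0.000747) and 129P2 (adjusted p = 0.000876), where 2.71%, 2.4% and 2.94% of genes were called higher. B6 was lower than C3H (adjusted p = 0.0350) and 129P2 (adjusted p = 0.0318), where 2.07% and 1.67% of genes were called in that direction. The fit shares 1 estimate of the spread over the strains, and the SD of Ifi202b was 0.63 in NZO against 0.061 in B6. Both calls of B6 against C3H and 129P2 were lost with quantile normalization again (adjusted p = 0.127 and 0.113), with equal array medians (adjusted p = 0.0730 and 0.0726) and with robust moderation (adjusted p = 0.0538 and 0.0531). They were also lost without any 1 of B6 replicates 2 to 5, the first without C3H replicate 3, 4 or 5 (adjusted p up to 0.0839) and the other without 129P2 replicate 1, 4 or 5 (adjusted p up to 0.0921). The NZO calls held without any 1 animal. With dim values raised to the floor the NZO calls were lost too (adjusted p = 0.189, 0.653 and 0.516), since that setting takes away all but 1 of the values.

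Ifi205, whose product has been linked to Pycard transcription in macrophages, was highest in B6. Its values were 5.80, 5.50, 5.65, 5.63 and 5.06 in NZO and 6.24, 6.25, 7.02, 6.21 and 6.17 in B6. In C3H they were 5.64, 5.94, 5.47, 5.81 and 5.77, and in 129P2 6.26, 5.66, 5.76, 5.77 and 6.36. B6 lay above NZO and C3H without overlap, as it did in 4.31% and 3.98% of all genes, and overlapped 129P2, in which replicates 1 and 5 reached the B6 range. Only B6 replicate 3 was above its floor, and it also stood apart from the other B6 animals. Without the filter, NZO was lower than B6 (means 5.53 ± 0.28 and 6.38 ± 0.36, SD, n = 5 each, adjusted p = 0.00137), as 4.39% of genes were, a call lost with dim values raised to the floor (adjusted p = 0.630). C3H was also lower than B6 (mean 5.73 ± 0.18, adjusted p = 0.0174), as 3.63% of genes were, and this call was lost without B6 replicate 3 (adjusted p = 0.0564), without C3H replicate 3 (adjusted p = 0.0599), with array spread as a covariate (adjusted p = 0.183) and with dim values raised to the floor (adjusted p = 0.716). Raising dim values to the floor takes away every Ifi205 value but that of B6 replicate 3, so losing both calls there says nothing about their stability. 129P2 (mean 5.96 ± 0.32) did not pass against B6 (adjusted p = 0.180).

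The probe set shared by Ifi204 and Ifi211 was bright enough to test, with 19 of 20 arrays above their floor, and was highest in B6. Its values were 7.69, 6.77, 7.04, 7.14 and 7.80 in NZO, and 7.73, 7.85, 8.71, 7.99 and 7.90 in B6. They were 7.02, 6.82, 6.67, 7.44 and 7.25 in C3H, and 7.36, 7.23, 7.02, 7.16 and 7.40 in 129P2. B6 was above C3H and 129P2 without overlap, an order that 3.98% and 3.42% of all genes had, and overlapped NZO through NZO replicate 5. In a fit of 22534 probe sets each on its own, C3H minus B6 was -0.998 (SE 0.19, adjusted p = 0.00217) and 129P2 minus B6 was -0.80 (SE 0.19, adjusted p = 0.0148), where 6.99% and 5.5% of probe sets were called. NZO minus B6 was -0.75 (SE 0.19, adjusted p = 0.0190, 7.74% called), and this call was lost without B6 replicate 3 (adjusted p = 0.0617), NZO replicate 2 (adjusted p = 0.0694) or NZO replicate 3 (adjusted p = 0.0586). With array spread as a covariate it was lost again (adjusted p = 0.0923), as was 129P2 minus B6 (adjusted p = 0.100). Which of the 2 genes this signal came from cannot be told.

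Other genes of the cluster also stood high in B6. Of these 6 had a probe set of their own and 1, Ifi207, was tested. Ifi207 values were 8.48, 7.94, 7.73, 7.78 and 8.05 in NZO, 8.25, 8.81, 9.26, 8.48 and 8.18 in B6, 7.56, 7.17, 7.26, 7.71 and 7.68 in C3H, and 8.23, 6.87, 7.23, 7.42 and 8.06 in 129P2. C3H lay below both B6 and NZO without overlap, as in 3.98% and 2.86% of all genes, and 129P2 reached into the B6 range by 1 animal, replicate 1. C3H minus B6 was -1.12 (SE 0.22, limma, adjusted p = 0.00230) and 129P2 minus B6 was -1.03 (SE 0.22, adjusted p = 0.00464), where 5.34% and 4.08% of genes were called lower. NZO stood between, at -0.60 against B6 (95% interval -1.06 to -0.14, adjusted p = 0.0926) and 0.52 above C3H (95% interval 0.05 to 0.98, adjusted p = 0.230), neither of which was called. The NZO minus B6 difference of Ifi207 was called without NZO replicate 1 (-0.72, adjusted p = 0.0395) and with array weights (-0.61, adjusted p = 0.0275). Ifi203 and Ifi207 thus had different strains at the low end, and the difference between the 2 genes was not itself tested.

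Ifi209, for which Pyhin1 is a synonym, was above its floor on 1 array, B6 replicate 3. Its values were 6.33, 6.62, 7.26, 6.50 and 6.38 in B6, against 5.36 to 6.59 in NZO, 5.30 to 5.63 in C3H and 5.13 to 5.85 in 129P2. B6 was above C3H and 129P2 without overlap and overlapped NZO. Without the filter B6 was higher than C3H (adjusted p = 0.000712), 129P2 (adjusted p = 0.00244) and NZO (adjusted p = 0.0349), as in 3.63%, 2.77% and 4.39% of genes. The last of these calls was lost without B6 replicate 2, 3 or 4, without NZO replicate 2, 3 or 4 (adjusted p up to 0.119), with robust moderation (adjusted p = 0.0659) and with array spread as a covariate (adjusted p = 0.0992). With dim values raised to the floor all 3 were lost (adjusted p = 0.503, 0.532 and 0.450 against C3H, 129P2 and NZO). That setting takes away all but 1 of the Ifi209 values, so these losses say nothing about stability. Ifi213 ran from 6.18 to 6.88 in B6, from 5.05 to 5.51 in NZO, from 5.08 to 5.95 in C3H and from 4.81 to 5.95 in 129P2. Ifi208 ran from 5.87 to 6.56 in B6 and from 4.80 to 5.73 in the other strains. In both genes B6 was above all other animals, as it was in 0.602% of all genes. Ifi208 was below the floor on every array, and Ifi213 was above it in B6 replicate 3 alone. Ifi206 ran from 5.17 to 5.90 in B6, 4.94 to 5.49 in NZO, 4.75 to 5.28 in C3H and 4.71 to 5.08 in 129P2, below the floor on every array. Without the filter it was lower in 129P2 than in B6 (adjusted p = 0.00400) and in C3H than in B6 (adjusted p = 0.0379), and the latter call was lost without B6 replicate 2, 3 or 4 or C3H replicate 1, 3 or 5 (adjusted p up to 0.122). Ifi214, by contrast, was not highest in B6, at 4.80 to 5.26 there and 5.22 to 6.15 in NZO, and was below the floor on every array. These genes are close relatives in sequence, and whether probes of one also bind the transcript of another was not tested. Nor was it tested whether the probes match the sequences of every strain equally, so these are differences of probe signal.

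**Figure D4:**
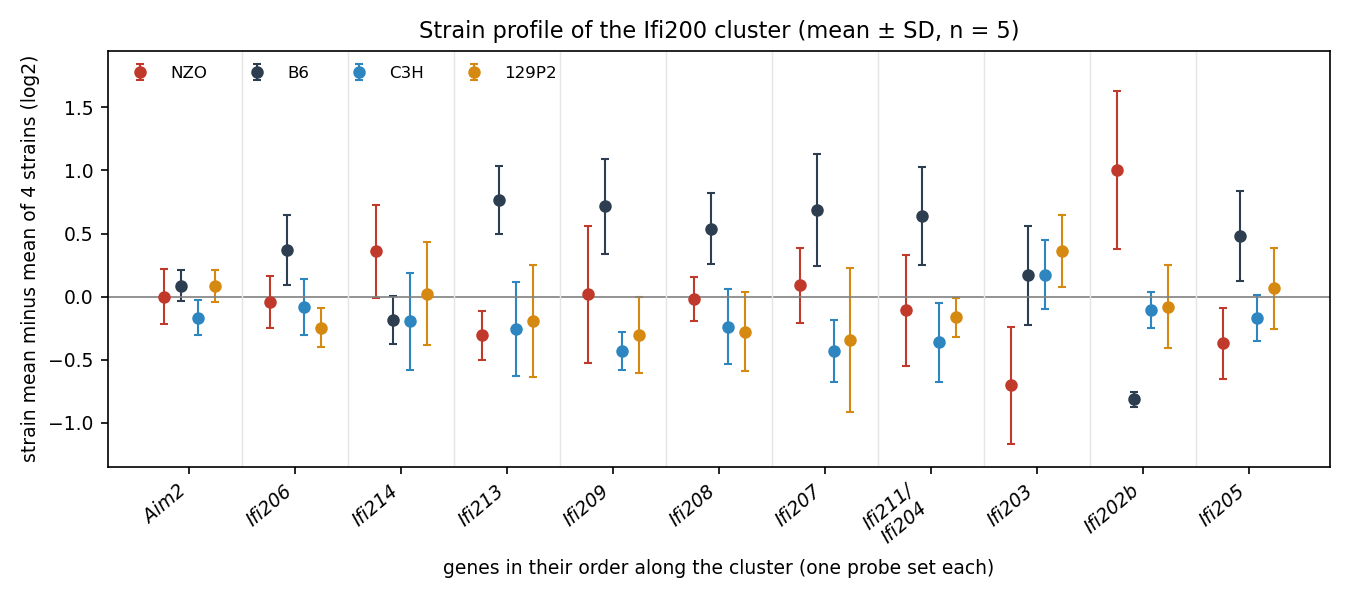
Strain mean minus the mean of the 4 strains on the log2 scale (points, with the SD of 5 animals as bars) for 11 probe sets in their order along the cluster. The B6 mean is the highest at Ifi206, Ifi213, Ifi209, Ifi208, Ifi207, Ifi205 and the Ifi211 and Ifi204 probe set and the lowest at Ifi202b, while Ifi203 is lowest in NZO.

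Of the 6 measured genes on either side of the cluster 1 and 2 were bright enough to test, and 0 passed the F-test (limma, adjusted p of 0.338 for Cadm3, 0.574 for Olfr433 and 0.224 for Olfr231).

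The genes whose profile over the 20 arrays was most like that of Ifi203 were Cd55, a complement regulator on cell surfaces, Kdr, the receptor of endothelial cells for VEGF-A, and Sparc, a secreted matrix protein. Likeness was the root mean square difference over 20 arrays after each gene was centred on its own mean, which was 0.254 for Cd55, 0.256 for Kdr and 0.261 for Sparc, against a median of 0.546 over tested genes. Ifi203 varied by 0.526 around its own mean. Kdr averaged 8.63 in NZO against 9.28, 9.32 and 9.37 in B6, C3H and 129P2. Cd55 averaged 7.64 against 8.39, 8.48 and 8.30 in the same strains, and Sparc 9.95 against 10.86, 11.03 and 11.29. These genes were chosen for this likeness, so their low NZO means are a description and no support.

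The endothelial markers, a list that includes Kdr, had a lower strain mean in NZO than elsewhere. All 7 of them passed the F-test, where 17% of tested genes did. Lower in NZO were 5 of 7 against B6, 4 against C3H and 4 against 129P2, where 6.64%, 3.09% and 4.61% of tested genes were, with median differences of -0.46, -0.43 and -0.45, where the median over all tested genes was 0.01, 0.00 and 0.01. For Tek, the angiopoietin receptor, the differences of NZO were -0.60, -0.48 and -0.52 in the same 3 comparisons (adjusted p = 0.000467, 0.00467 and 0.00189). The mean of the 7 markers ran from 8.07 to 8.57 over the NZO animals, and from 8.59 to 9.08 in B6, 8.47 to 8.89 in C3H and 8.50 to 8.93 in 129P2 animals. NZO replicate 1, which had the highest Ifi203 value of its strain, also had the highest endothelial mean of its strain. This was not particular to the endothelial list. The same animal had the highest NZO mean of the macrophage (9.26), pan-leukocyte (8.17) and hepatocyte (13.4) markers and of the interferon-induced genes (8.68), and the widest NZO array. It also had the highest NZO mean of the monocyte (7.32) and neutrophil (6.54) markers, the inflammasome partners (7.34) and the other cluster genes (6.14). It did not have the highest NZO mean of the B cell, T cell, NK cell or dendritic cell markers. For the partners of cytosolic DNA sensing the highest NZO mean was that of replicate 5. Against B6 the count of lower endothelial markers was 3 without NZO replicate 2 and 3 with array spread as a covariate. The part of endothelial cells in the Ifi203 difference was not tested.

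Macrophage and leukocyte markers moved with another strain. Of 13 macrophage and Kupffer cell markers 7 passed the F-test, against 17% of tested genes. Lower in C3H than in B6 were 5, where 5.34% of tested genes were, among them Folr2 (-1.20, adjusted p = 5.07e-05), a folate receptor of resident macrophages. Lower in NZO than in B6 were 2, where 6.64% were, among them Clec4f (-0.69, adjusted p = 0.000405), a Kupffer cell lectin. This count of 2 was 1 without any 1 of B6 replicates 3 to 5 or NZO replicates 2 to 5. It was 1 too with quantile normalization again and with array spread as a covariate. The count of 5 fell to 2 without B6 replicate 3, to 3 without C3H replicate 1 and to 1 with array spread as a covariate. Their mean per animal was 8.84 to 9.39 in B6 and 8.41 to 8.72 in C3H, and 8.57 to 9.26 in NZO and 8.56 to 9.61 in 129P2. Of 5 pan-leukocyte markers 3 were lower in C3H than in B6, with Cd52 at -1.36 (adjusted p = 9.34e-05), and their mean ran from 7.85 to 8.56 in B6 and from 7.32 to 7.57 in C3H. Ifi207 and the Ifi204 and Ifi211 probe set were lower in C3H than in B6, as these markers were. Both were also lower in 129P2 than in B6. In that comparison 1 of the 13 macrophage and 1 of the 5 pan-leukocyte markers was called lower, against 4.08% of tested genes. The median differences of the macrophage and pan-leukocyte lists were -0.039 and -0.078. The part of these cells in either difference was not tested. The 5 tested B cell, 2 NK cell, 4 neutrophil, 5 dendritic cell and 2 monocyte markers had 0 members past the F-test, and the 5 T cell markers had 1, Cd4. Higher in NZO than in B6 were 1 of the 4 neutrophil and 1 of the 2 monocyte markers, where 3.63% of tested genes were. The mean of the 8 measured neutrophil markers, of which 4 were bright enough to test, was 6.30 to 6.54 in NZO and 6.08 to 6.14 in B6. In C3H it was 6.10 to 6.34 and in 129P2 6.12 to 6.32, so NZO overlapped both. All these means lay near or under the floors of the arrays. The 8 hepatocyte markers had 0 past the F-test as well, with a mean of 13.2 to 13.4 on every array.

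**Figure D5:**
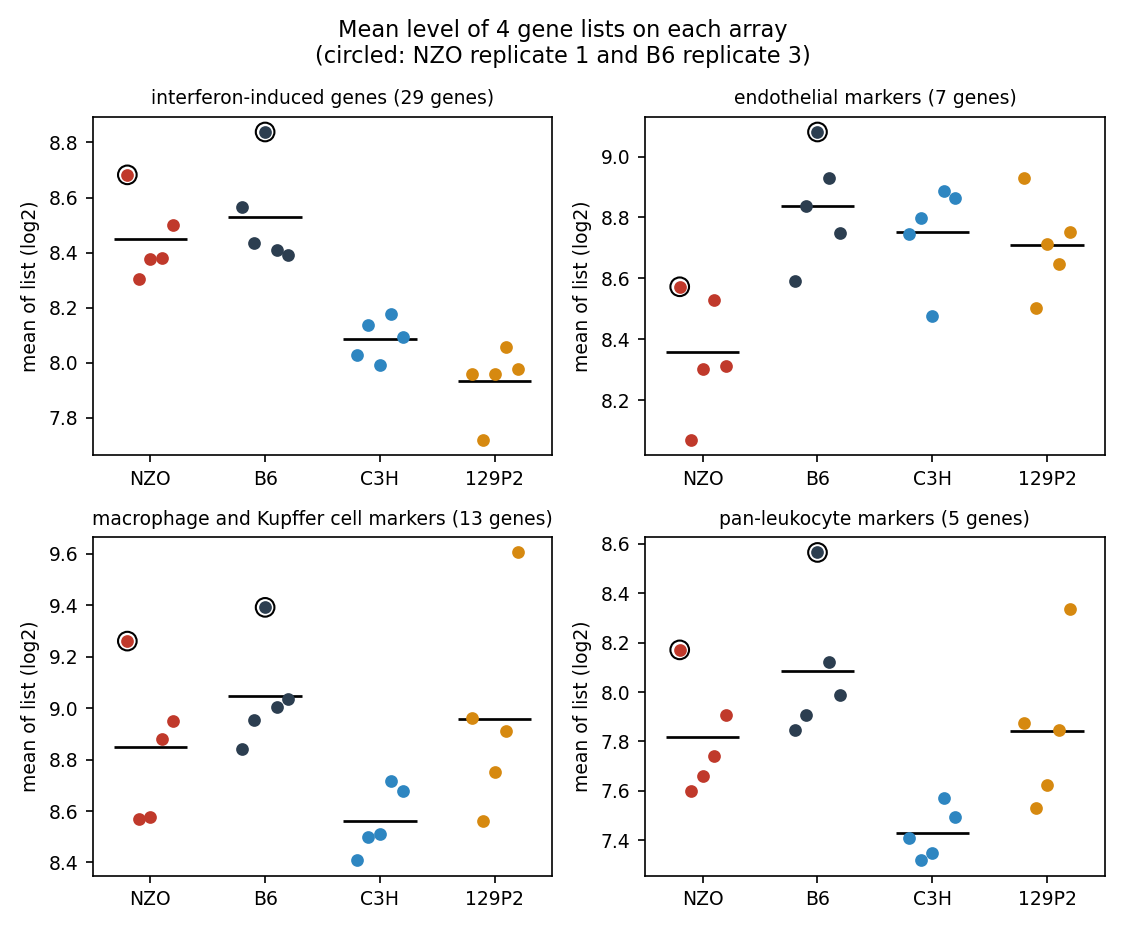
Mean log2 level of 4 gene lists (interferon-induced genes and endothelial, macrophage and pan-leukocyte markers) in each of the 5 animals of each strain (points), with the strain mean (black line) and NZO replicate 1 and B6 replicate 3 circled. The endothelial mean is 8.07 to 8.57 in NZO against 8.47 to 9.08 in the other strains, and the interferon mean is 8.30 to 8.84 in NZO and B6 against 7.72 to 8.18 in C3H and 129P2.

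The interferon-induced genes, a list that also holds the receptor genes, divided the strains as NZO and B6 against C3H and 129P2. Of 28 tested, 20 passed the F-test, where 17% of all tested genes did. Between NZO and B6 1 gene was called, Bst2, the tetherin gene, which was lower in NZO (-2.09, adjusted p = 2.23e-13), where 6.64% of all tested genes were called lower. Bst2 was lower than in B6 in C3H (-2.18) and 129P2 (-2.36) as well, so it was high in B6 and not low in NZO alone. Higher in NZO than in C3H were 12 and than in 129P2 19, with median differences of 0.37 and 0.50, and 0 were lower, where 3.51% and 4.29% of all tested genes were called higher. Lower than in B6 were 15 in C3H and 18 in 129P2, with medians of -0.39 and -0.57, where 5.34% and 4.08% of all tested genes were called lower. Among the called genes were Ifit1 (0.85 and 1.08 higher in NZO than in C3H and 129P2, adjusted p = 0.00249 and 0.000171), an inhibitor of viral RNA translation, and Rsad2 (0.84 and 0.99, adjusted p = 0.000943 and 0.000149), the antiviral enzyme viperin. The C3H minus B6 count fell to 9 without B6 replicate 3, to 9 without C3H replicate 1 and to 6 with array spread as a covariate. The order of Ifi203, which was low in NZO alone, was not that of this list. The part of interferon in the Ifi203 difference was not tested.

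Of 20 tested partners of cytosolic DNA sensing, 7 passed the F-test, where 17% of tested genes did. Irf7 is on this list and on that of the interferon-induced genes, so the lists overlap. Irf7, the transcription factor that amplifies interferon production, averaged 9.83 ± 0.44 in NZO and 9.65 ± 0.37 in B6, and 8.68 ± 0.20 in C3H and 8.31 ± 0.36 in 129P2 (SD, n = 5 each). It was higher in NZO than in C3H by 1.15 (adjusted p = 0.000386) and than in 129P2 by 1.52 (adjusted p = 1.29e-05). Zbp1, a sensor of Z-form nucleic acids, was higher in NZO than in 129P2 by 0.56 (adjusted p = 0.000583). Dnase1l3, a secreted DNase, was low in NZO, as Ifi203 was, at -0.56 against B6, -1.02 against C3H and -0.83 against 129P2 (adjusted p = 0.0199, 9.79e-05 and 0.000862). The Dnase1l3 call against B6 was lost without B6 replicate 3 (adjusted p = 0.0566), NZO replicate 2 (adjusted p = 0.0716) or NZO replicate 3 (adjusted p = 0.0636) and with array spread as a covariate (-0.36, adjusted p = 0.0996). Higher in NZO were 4 of 20 partners against C3H and 5 against 129P2, where 3.51% and 4.29% of tested genes were. Lower than in B6 were 4 in C3H and 5 in 129P2, where 5.34% and 4.08% were. Without B6 replicate 3 the counts of 4 and 5 against B6 were 1 and 3, the 4 became 2 without C3H replicate 3 and the 5 became 3 without 129P2 replicate 2, and without 1 of NZO replicates 1 and 3 or 129P2 replicate 2 the 5 against 129P2 were 3.

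Of the inflammasome partners 10 of 17 were bright enough to test, and 4 passed the F-test, where 17% of all tested genes did. Il18, the cytokine that the inflammasome matures, averaged 7.65 in C3H, 8.10 in NZO, 8.37 in B6 and 8.73 in 129P2. It was lower in C3H than in 129P2 (-1.07, adjusted p = 4.07e-06), as 2.78% of tested genes were, and than in B6 (-0.72, adjusted p = 0.000586), and lower in NZO than in 129P2 (-0.63, adjusted p = 0.00176). Il18bp, whose product binds and blocks IL-18, was high in NZO, at 0.32 against B6, 0.58 against C3H and 0.54 against 129P2 (adjusted p = 0.0403, 0.000426 and 0.000854), and 3.63% of tested genes were called higher in NZO than in B6. Its call against B6 was lost without B6 replicate 1, 4 or 5, without NZO replicate 2, 3 or 5 (adjusted p up to 0.109), with equal array medians (adjusted p = 0.0819) and with array spread as a covariate (adjusted p = 0.111). Gsdmd, the pore protein, was higher in NZO than in 129P2 (0.30, adjusted p = 0.0193). It no longer passed without NZO replicate 1 (adjusted p = 0.0543), without 129P2 replicate 2 (adjusted p = 0.0559) and with equal array medians (adjusted p = 0.0605). Pycard, the adaptor of AIM2, did not pass the F-test (adjusted p = 0.163).

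Array spread moved with some of these values. The interquartile range of log2 values over all probe sets ran from 2.20 to 2.50 over NZO arrays, 2.34 to 2.48 over B6, 2.17 to 2.40 over C3H and 2.19 to 2.37 over 129P2 arrays, and NZO replicate 1 and B6 replicate 3 had the widest array of their strain. With this range as a covariate, Ifi203 remained called, at -0.59 against B6 (adjusted p = 0.0292), -0.94 against C3H (adjusted p = 0.000280) and -1.11 against 129P2 (adjusted p = 3.88e-05). Without the filter and with the covariate, Ifi202b remained higher in NZO than in each other strain (adjusted p = 2.52e-07, 0.000312 and 0.000276) and lower in B6 than in C3H (adjusted p = 0.00343) and 129P2 (adjusted p = 0.00260).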

How the data were processed

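Liver RNA of 20 mice, 5 of each of 4 strains, was measured on Affymetrix arrays. The authors deposited log2 expression values made with RMA in Affymetrix Expression Console, per the submitters' processing notes, which summarises probes into probe sets after quantile normalization and so hides overall shifts. Versions are not given in the sources used here. Genes were named from the platform annotation: of 35556 probe sets 21789 had 1 gene symbol, 1621 several and 12146 none, and none was named from a probe set with several. A gene entered by its probe set of highest mean, and was tested where at least 5 arrays were above their own 40th percentile. Strain means were compared in 1 limma 3.58.1 fit (R 4.3.3) with an intensity trend, p-values adjusted by Benjamini-Hochberg over 14190 genes, threshold 0.05. The fit had 16 residual degrees of freedom. The code was tested on simulated data. The number of arrays limits the precision, and p-values measure the spread between these animals. Family and gene lists were chosen with earlier results of these data known. Named are the family, the 3 genes most like a member past the F-test, and up to 6 genes per list past the F-test; the flanking genes, Pycard and the other cluster genes were named beside them.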

Additional observations from a re-analysis of the deposited data

Results flagged for a closer look

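Single animals stood apart from the other 4 of their strain in 4 of 44 groups of 5 examined (the gap to the nearest value over the range of the group, Dixon's 95% limit), where chance flags about 1 in 20. All 4 were in B6. The groups come from the same animals and from related genes and are not independent, so 1 in 20 is no yardstick for their total. Replicate 3 was high at Ifi205 (7.02, nearest 6.25), at Ifi208 (6.56, nearest 5.98) and at the probe set of Ifi211 and Ifi204 (8.71, nearest 7.99). Replicate 4 was low at Ifi214 (4.80, nearest 5.19). B6 replicate 3 also had the highest mean of its strain over the interferon-induced genes (8.84), and its part in these values was not tested.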

How the results depend on the processing

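The Ifi203 calls of NZO against B6, C3H and 129P2 kept their direction and side of the threshold under every alternative tried except a required difference of at least 1, which NZO minus B6 and NZO minus C3H did not reach, with differences of -1.07 to -0.73, -1.08 to -0.79 and -1.26 to -0.98 when single animals were left out. No filter on dim genes raised the number of members past the F-test from 1 to 3, called in NZO minus B6 from 1 to 3, in NZO minus C3H and NZO minus 129P2 from 1 to 2, in C3H minus B6 from 0 to 2 and in 129P2 minus B6 from 0 to 1, because Ifi202b and Ifi205 then entered. Of all 19938 genes in that fit, 2418 were past the F-test. Called in the same order of comparisons were 1417, 906, 1210, 1136 and 886 of them. The required difference of at least 1 lowered the count of members called to 0 in NZO minus B6 and to 0 in NZO minus C3H, where 127 and 129 of 14190 genes were called. Of 222 member counts over all settings, 214 stayed within 1.5 times their main value. Each main count was 0 or 1, so staying in this range meant no change at all. With 2 members tested few changes were possible, and this number says little about stability. Small uncalled differences changed sign: with dim values raised to the floor, Aim2 was 0.024 in NZO minus B6, 0.021 in NZO minus 129P2 and 0.0027 in 129P2 minus B6, which was 0.025 with array spread as a covariate and -0.040 to 0.044 without single animals. Ifi203 C3H minus B6 was -0.042 with equal array medians and -0.12 to 0.14 without single animals, and Ifi207 C3H minus 129P2 was -0.26 to 0.084. Ifi207 NZO minus C3H was called when only both strains were fitted (0.52, adjusted p = 0.0368). The cause of these changes was not tested. Alternatives that combine no filter, array spread or single probe sets with another choice, and those for the gene lists and their named genes, were chosen after the data were seen. No paired analysis was possible because the labels carry no replicate numbers. Dim members limit what can be said: for Ifi202b and Ifi205 a level under the floor has no reliable scale.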
